A study of Caenorhabditis elegans with 2 samples.

Results

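The 9 genes described here are egl-44, egl-46, zag-1, alr-1, ahr-1, sem-4, lin-14, ham-2 and egl-43, out of 19973 protein-coding genes of Caenorhabditis elegans on the nuclear chromosomes. They were listed by name as transcription factor genes that promote, restrict or subdivide touch receptor neuron fate. The rule that names them uses no measured value, but the list was chosen with earlier results of these data known. Binding of UNC-86 was measured by chromatin immunoprecipitation and sequencing (ChIP-seq) with an antibody to GFP, in 2 biological replicates of a single group. These were whole hermaphrodites of strain OP476 in late embryonic development, collected 3.5 hours after synchronization by egg bleaching. The strain carries the mutation unc-119(tm4063) on chromosome III and the integrated transgene wgIs476, from which UNC-86 is made with a C-terminal GFP-FLAG tag. Both replicates come from this strain, no untagged strain was analysed here, and the labels name no promoter for the transgene.

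Touch receptor neurons are the mechanosensory cells with which the worm senses gentle touch to its body. The POU homeodomain factor UNC-86 starts their differentiation by switching on the LIM homeodomain gene mec-3, and the pair of proteins then drives the genes of the mechanosensory channel and of the special microtubules of these cells. UNC-86 and MEC-3 are also made in neurons that do not become touch receptors, so other factors decide which cells keep the fate. EGL-44 and EGL-46 repress touch receptor genes in the FLP neurons, and ZAG-1 opposes them. ALR-1 and AHR-1 act on the side of the touch fate, SEM-4 keeps it from other neurons, and LIN-14 sets the timing of postembryonic development. HAM-2 and EGL-43 are known mainly from the HSN motor neurons, which also depend on unc-86.

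The peak lists of build ce11 were used: the IDR list of 816 peaks that passed the authors' irreproducible discovery rate analysis, the pooled list of 12784 peaks and background regions from both replicates together, and the lists of replicate 1 (17498 entries) and replicate 2 (18470 entries). A summit, the position of a peak's highest point, was given to a gene when it lay within 5 kb of any of its transcript starts or in an intron. Signal is the authors' value per peak, and rank 1 is the highest signal of a list. The scale of the signal differs between lists, so signals are compared only within one. Signal ran from 64.7 to 838 in the IDR list and from 25.6 in the pooled list, whose median was 31.8. The medians were 16.5 in replicate 1 and 17.3 in replicate 2. The sequencing depth is unknown, each signal is a single value without an error, and with 1 group no difference between groups could be tested. Chromatin came from whole embryos, so binding in few cells and weak binding in many cannot be told apart.

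None of the 9 genes had a summit in the IDR list, where 10% of all protein-coding genes (1997 of 19973) had one by the same rule. The nearest IDR summit lay between 29.95 kb (alr-1) and 213 kb (sem-4) from a transcript start of the gene. All 9 had a pooled summit, as did 63.4% of protein-coding genes, and all 9 had summits in replicate 1 (76% of genes) and in replicate 2 (77.7% of genes). A pooled summit with a summit of each replicate within 100 bp was found at 6 of the 9: egl-44, egl-46, zag-1, ahr-1, lin-14 and egl-43. Of all protein-coding genes 32.2% had one. Several of the 9 genes are long or have many starts, and the sequence searched had a median of 12.451 kb against 10.001 kb over all genes, which raises such counts.

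Counted per summit, the 9 genes stood close to the lists as a whole in how often the replicates matched. They had 25 pooled summits, of which 7 matched in both replicates, 7 in replicate 1 alone, 9 in replicate 2 alone and 2 in neither. The share matched in both was 28%, against 29.9% (3825 of 12784) of all pooled summits. Of their 31 summits in replicate 1, 22.6% had a summit of replicate 2 within 100 bp, against 21.7% of that whole list. Of their 32 summits in replicate 2, 21.9% matched replicate 1, against 20.5%. Pooled summits numbered 1.99 per 10 kb searched at the 9 genes and 1.25 per 10 kb over all protein-coding genes. These densities are a description, and no test was made of the difference.

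**Figure D1:**
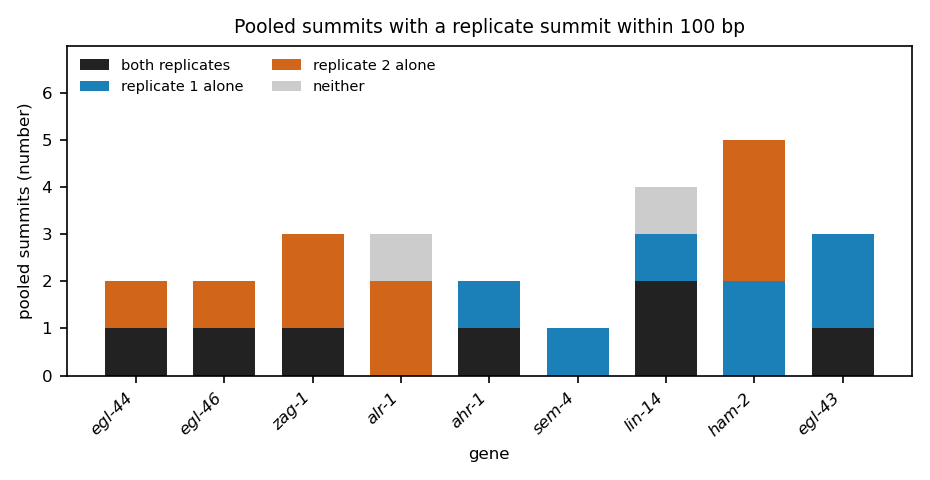
Number of pooled summits at each of the 9 genes (vertical axis), split by whether a summit of both replicates, of 1 replicate alone or of neither lay within 100 bp. At alr-1, sem-4 and ham-2 no summit matched in both replicates, and lin-14 was the only one of the 9 with 2 that did.

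By signal the pooled summits fell into a high and a low range. The 4 with a signal above 47 were 1 at zag-1, 2 at lin-14 and 1 at ahr-1. A second zag-1 summit had a signal of 46.1, and none of the other 20 exceeded 37.2. The highest of all, at zag-1, ranked 1233 in the pooled list and was the single one with a −log10 q of at least 1, at 1.07. A −log10 q of 1 corresponds to a false discovery rate of 1 in 10. Of the 25 pooled summits, 16 were below the median signal of their list. The lowest, at egl-43, had a signal of 25.7 and ranked 12736 of 12784. The pooled list holds peaks and background regions together, as its authors labelled it. Closest inside the 5 kb limit were the zag-1 summits at 4298 bp and 4498 bp and an alr-1 summit at 4762 bp (signal 36.5). The zag-1 summit at 4298 bp lies in an intron of that gene, so the rule counts it at any distance. Closest outside, and so not counted, were summits 5160 bp from egl-44 (signal 32.6), 5539 bp from ahr-1 (26.7) and 5648 bp from zag-1 (26.4).

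**Figure D2:**
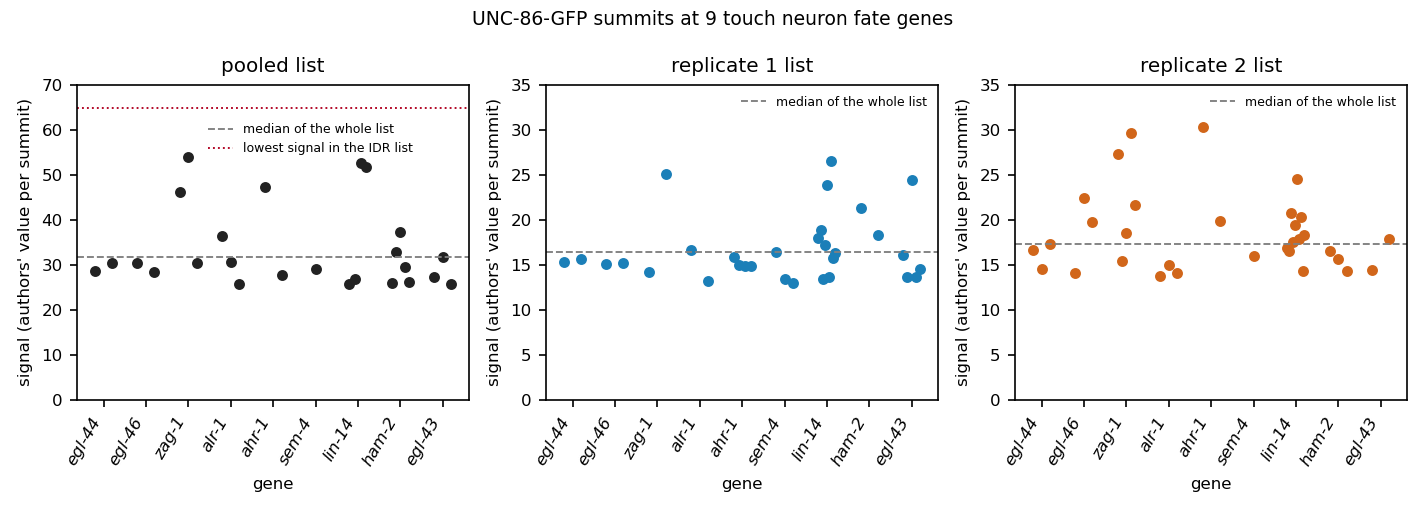
Signal of every summit at the 9 genes in the pooled list and in each replicate's list (vertical axes start at 0, 1 point per summit). No pooled summit reached the lowest signal of the IDR list, 64.7 (dotted line), and 16 of the 25 lay below the list's median, 31.8 (dashed line).

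The gene zag-1 encodes a zinc finger homeodomain protein of the ZEB family that keeps egl-44 and egl-46 from acting in touch receptor neurons (WBGene00006970, IV 3855843 to 3861569, plus strand, 1 transcript). Its strongest pooled summit lay in an intron near the 3′ end of the gene, 4298 bp downstream of the start (IV 3860141, signal 53.9). Both replicates had it in the upper part of their lists: in replicate 1 the signal was 25.1 and the rank 2002, 39 bp away, and in replicate 2 the signal was 29.7 and the rank 1225, 8 bp away. A second summit lay 866 bp upstream of the start (IV 3854977, signal 46.1, rank 1794), in an exon of the non-coding RNA gene F28F9.10. That one was present in replicate 2 (signal 27.3, rank 1641) and had no counterpart in replicate 1, whose nearest summit was 4473 bp away. Another, with a signal of 30.3, lay in a coding exon of zag-1 200 bp from the first and matched replicate 2 alone. The replicates thus gave the intronic summit at nearly the same place, and the upstream one came from replicate 2. The intronic summit with 50 bases to each side, shown because it was the highest at these genes, reads as follows on the plus strand of ce11 (chrIV:3860091-3860191):
zag-1 intron: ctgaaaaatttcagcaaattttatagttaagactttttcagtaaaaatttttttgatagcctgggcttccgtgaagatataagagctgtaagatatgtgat

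The gene egl-44, a TEAD family transcription factor gene, has 9 annotated starts and 13 transcripts (WBGene00001208, II 5928802 to 5940830, plus strand). One pooled summit lay 107 bp upstream of its first start (II 5928695, signal 28.5, rank 9145) and was matched in replicate 2 alone, at a signal of 16.6. The other lay in an intron 1964 bp downstream of a start (II 5930794, signal 30.3, rank 7505), and both replicates had a summit within 9 bp of it, at signals of 15.6 and 14.5. Those 2 values are below the medians of their lists, so the position was shared by the replicates while the signal was low in both. At egl-46, which encodes the zinc finger partner of EGL-44 (WBGene00001210, V 6679123 to 6681573, minus strand), a summit in an intron 739 bp downstream of the start (V 6680834, signal 28.4) was present in replicate 2 at a signal of 22.5 and rank 3508. The nearest summit of replicate 1 to that of replicate 2 was 2619 bp away. The summit matched in both replicates (V 6678186, signal 30.5, rank 7375) lay 3387 bp downstream of the egl-46 start in a coding exon of the neighbouring gene cest-34. Its signals were 15.2 in replicate 1 and 14.1 in replicate 2. The matched summits at this repressor pair are shown for comparison with that of zag-1, on the plus strand (chrII:5930744-5930844 and chrV:6678136-6678236):
egl-44 intron: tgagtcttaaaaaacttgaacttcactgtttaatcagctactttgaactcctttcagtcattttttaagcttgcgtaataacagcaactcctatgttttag
beside egl-46, in cest-34: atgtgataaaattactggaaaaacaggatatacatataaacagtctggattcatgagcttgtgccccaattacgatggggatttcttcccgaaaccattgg

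The gene alr-1 encodes an Aristaless-type homeodomain protein that makes touch receptor differentiation reliable (WBGene00044330, X 11121871 to 11125620, minus strand). None of its 3 pooled summits was matched in both replicates. The strongest (X 11120858, signal 36.5, rank 3835) was 4762 bp downstream of its start and only 147 bp downstream of the start of the neighbouring gene R08B4.3, in an intron of that gene. Replicate 2 had it at a signal of 13.8, among the lowest of its list (rank 17822), and the nearest summit of replicate 1 was 4148 bp away. Inside alr-1, an intronic summit 812 bp downstream of the start (X 11124808, signal 30.7) had a replicate 2 summit 51 bp away (signal 14.95) and a replicate 1 summit 198 bp away (signal 16.7). The remaining one lay 2726 bp upstream (signal 25.8), with no replicate summit within 100 bp. The strongest summit had the second lowest GC content of the 25, and its window is given on the plus strand for contrast with the GC-rich windows of lin-14 (chrX:11120808-11120908):
beside alr-1, in R08B4.3: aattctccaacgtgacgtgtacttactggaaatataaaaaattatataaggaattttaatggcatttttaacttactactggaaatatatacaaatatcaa

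The genes ahr-1 and sem-4 both lie on chromosome I. The gene ahr-1 encodes the aryl hydrocarbon receptor homolog, which directs the touch fate of the AVM neuron (WBGene00000096, I 9522550 to 9531132, plus strand, 2 starts). Its main pooled summit lay 1042 bp upstream of the first start, between protein-coding genes (I 9521508, signal 47.3, rank 1691). Both replicates placed it within 2 bp, but at very different heights: the signal was 15.8 in replicate 1, at rank 9870 and below the median, and 30.3 in replicate 2, at rank 1153. It was the strongest summit of replicate 2 at any of the 9 genes. A second summit 60 bp upstream of the other start (I 9524602, signal 27.9) matched replicate 1 alone. The gene sem-4 encodes a Spalt-type zinc finger protein (WBGene00004773, I 7038900 to 7048832, plus strand). It had the fewest pooled summits and the lowest strongest one: a single summit 4179 bp upstream (I 7034721, signal 29.2, rank 8561), which matched replicate 1 (signal 16.4) and not replicate 2. In its introns replicate 1 had 2 summits (signals 13.5 and 12.9) and replicate 2 had 1 (16.0), none of them matched.

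**Figure D3:**
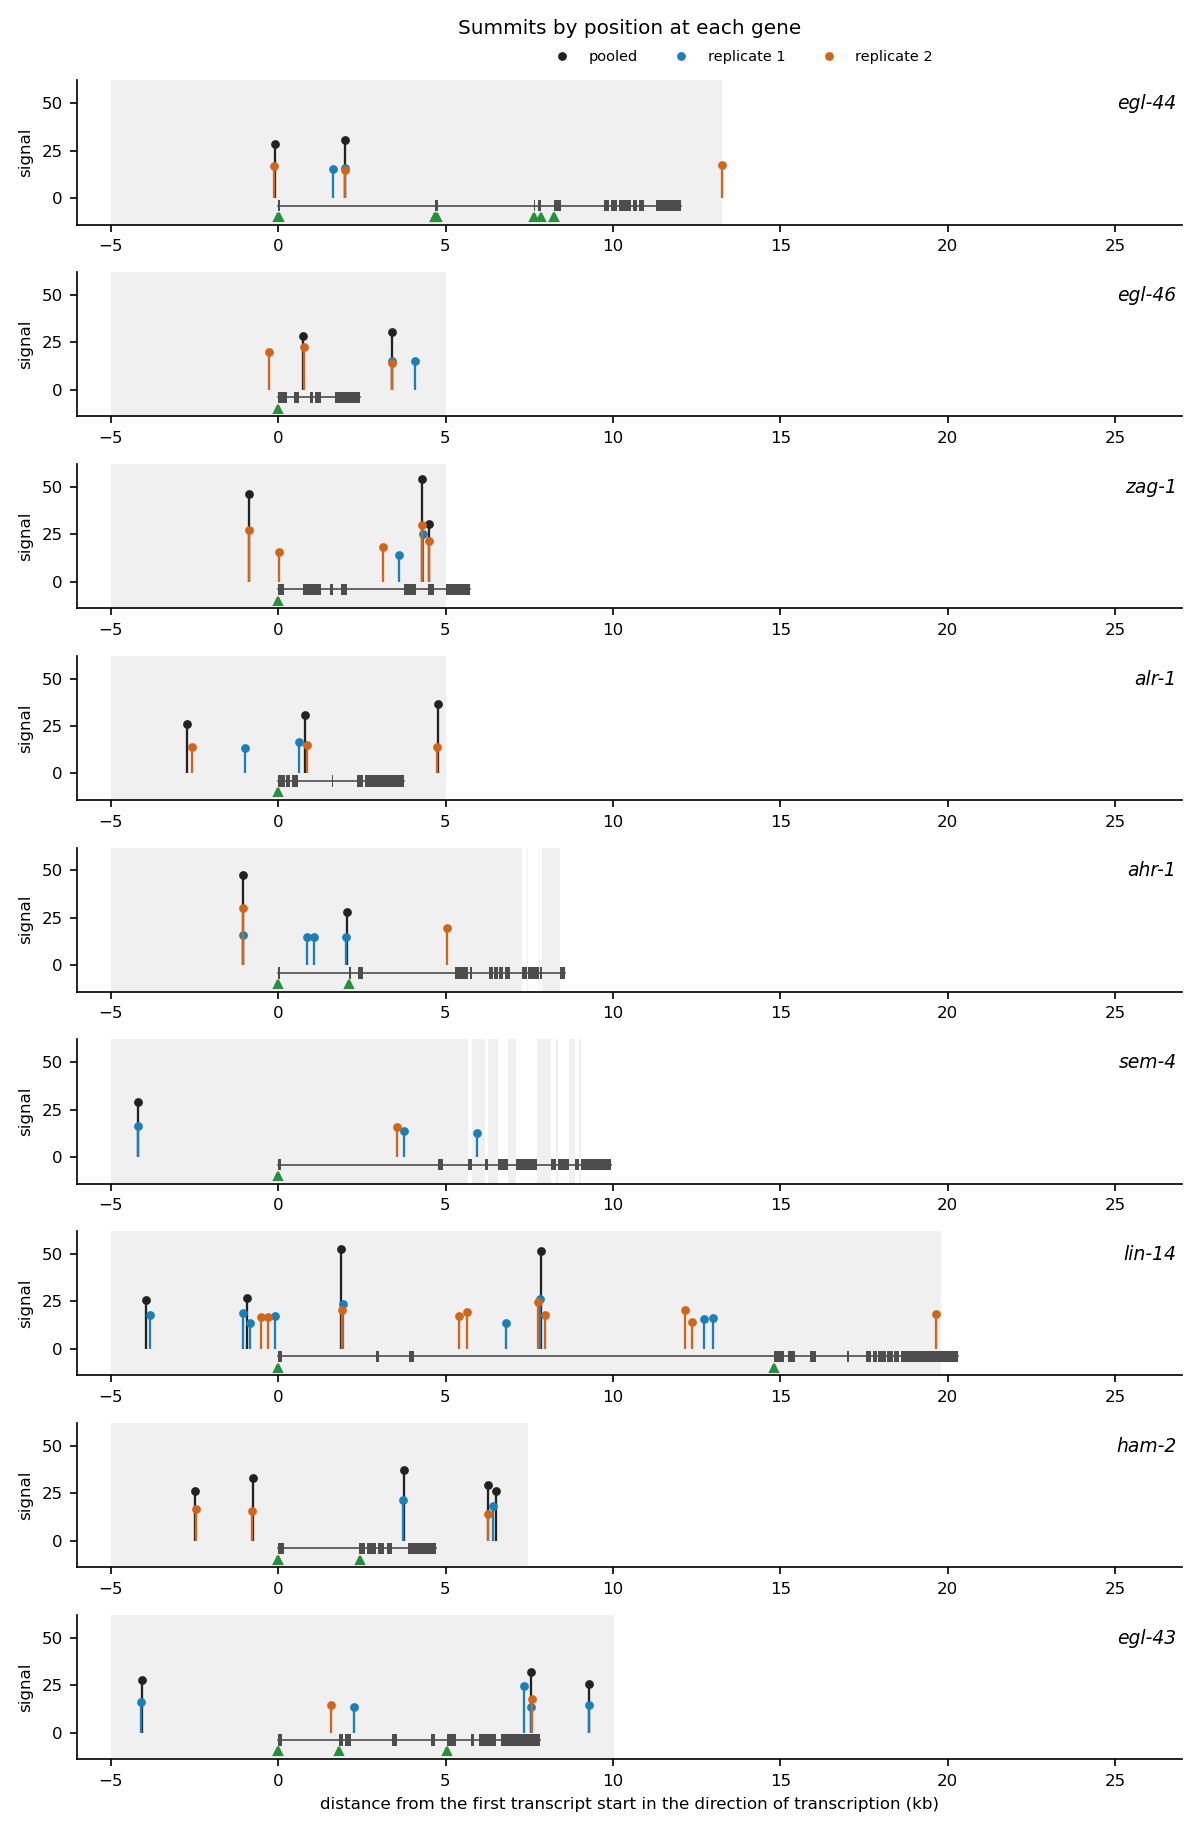
Summits at each gene by distance from its first transcript start (horizontal axis, kb, in the direction of transcription) with the signal as height, for the pooled list and both replicates. Pale grey bands are the searched sequence, dark boxes exons and triangles transcript starts, and heights compare only within a list. The highest zag-1 summit and the 2 highest of lin-14 lie in introns with summits of both replicates beside them, while the zag-1 summit upstream of the start has one of replicate 2 alone.

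The gene lin-14 encodes a nuclear protein of the heterochronic pathway, which is repressed by the microRNA lin-4 as larval development proceeds (WBGene00003003, X 11465560 to 11485871, plus strand, 2 starts). It had the most replicate summits of the 9, with 9 in replicate 1 and 10 in replicate 2, over the longest sequence searched, 24.8 kb. Its 2 strongest pooled summits were both intronic and both matched. The first lay 1884 bp downstream of the first start (X 11467444, signal 52.5, rank 1320), at signals of 23.9 in replicate 1 (rank 2413) and 20.7 in replicate 2 (rank 4797). The other lay deep in the long intron, 6960 bp upstream of the second start (X 11473401, signal 51.8, rank 1365), at 26.5 in replicate 1 (rank 1709) and 24.6 in replicate 2 (rank 2463). Together with the intronic zag-1 summit these were the 3 of the 7 matched summits that stood above the median in both replicates. The other 15 replicate summits at lin-14 had no counterpart in the other replicate within 100 bp, including 4 upstream of the first start in replicate 1 and 2 in replicate 2. Pooled summits 916 bp and 3960 bp upstream were low, with signals of 26.8 and 25.7. Both strong windows are shown, the second one added after its values were seen, on the plus strand (chrX:11467394-11467494 and chrX:11473351-11473451):
lin-14 intron, first: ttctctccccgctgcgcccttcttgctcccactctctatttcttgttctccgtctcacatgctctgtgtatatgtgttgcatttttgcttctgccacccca
lin-14 intron, second: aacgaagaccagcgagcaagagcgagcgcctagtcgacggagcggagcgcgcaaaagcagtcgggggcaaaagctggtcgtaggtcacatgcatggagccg

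Base composition differed among the 5 pooled summits with a signal above 46, all of which were below the lowest signal of the IDR list, 64.7. GC content over the 101 bases was 50.5% and 62.4% at the lin-14 summits, 49.5% at the upstream ahr-1 summit and 50.5% at the upstream zag-1 summit, but 29.7% at the intronic zag-1 summit. The median was 36.6% over all pooled summits and 49.5% over the IDR summits. Thus 4 of the 5 summits with a signal above 46 had a GC content at or above the IDR median. The ahr-1 summit equalled that median, and the highest summit was AT-rich. The share of all pooled summits at or above it was not counted. Among the other 20 summits GC content ran from 22.8% (egl-43) to 46.5% (egl-46). The part of base composition in the signal was not tested.

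The gene ham-2, a zinc finger gene needed for HSN migration, had 5 pooled summits, the most of the 9, and none matched in both replicates (WBGene00001821, X 4554685 to 4559408, plus strand, 3 starts). The strongest was intronic, 1306 bp downstream of a start (X 4558441, signal 37.2, rank 3593), and was present in replicate 1 alone (signal 21.3, rank 3561). The summit 760 bp upstream (X 4553925, signal 32.8) was present in replicate 2 alone, at 15.6. The remaining 3 had signals of 26.0 to 29.5, and their nearest starts were those of C07A12.18 and C05E11.6. The closest summits of the 2 replicates were 134 bp apart, at X 4561095 in replicate 1 (signal 18.3) and X 4560961 in replicate 2 (signal 14.3), and ham-2 counted as matched in both when 200 bp was allowed. The strongest window is given on the plus strand (chrX:4558391-4558491):
ham-2 intron: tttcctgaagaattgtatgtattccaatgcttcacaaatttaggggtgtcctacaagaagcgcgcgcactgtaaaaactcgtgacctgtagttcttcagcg

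The gene egl-43 encodes a zinc finger protein of the EVI1 family that acts in HSN migration and in the anchor cell (WBGene00001207, II 9955185 to 9963020, plus strand, 4 starts). Its strongest pooled summit lay in its 3′ UTR (II 9962745, signal 31.8, rank 6331) and was matched 1 bp away in replicate 1 (signal 13.6, rank 15385) and 28 bp away in replicate 2 (signal 17.8, rank 8398). The strongest summit of replicate 1 at the gene, with a signal of 24.4 and rank 2194, was also in the 3′ UTR, 221 bp from the pooled one and 249 bp from the nearest of replicate 2. The other pooled summits lay 4056 bp upstream of the first start (signal 27.4) and in an intron of the neighbour dtmk-1 (signal 25.7), each matched in replicate 1 alone. Near the starts, each replicate had 1 summit in an intron that the other lacked, at signals of 13.7 and 14.4.

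**Figure D4:**
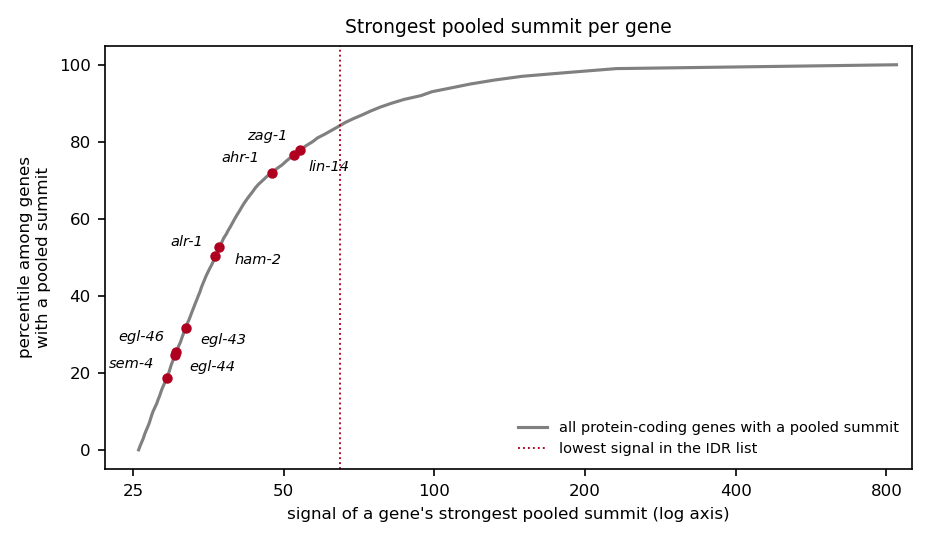
Signal of the strongest pooled summit of a gene (horizontal axis, log scale) against its percentile among the 12659 protein-coding genes with a pooled summit (curve). The 9 genes (points) run from sem-4 at 29.2 to zag-1 at 53.9, all below the lowest signal of the IDR list, 64.7 (dotted line).

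Ordered by their strongest pooled summit, the genes ran from zag-1 (53.9), lin-14 (52.5) and ahr-1 (47.3) through ham-2 (37.2) and alr-1 (36.5) to egl-43 (31.8), egl-46 (30.5), egl-44 (30.3) and sem-4 (29.2). Among the 12659 protein-coding genes with a pooled summit, 77.8% had a lower strongest signal than zag-1, 76.7% lower than lin-14, 71.9% lower than ahr-1 and 18.6% lower than sem-4. The median of the 9 values was 36.5, against 36.4 over all genes with a pooled summit. In replicate 1 the highest signals of a gene were those of lin-14 (26.5), zag-1 (25.1) and egl-43 (24.4), and in replicate 2 those of ahr-1 (30.3), zag-1 (29.7) and lin-14 (24.6). Neighbours in these orders rest on single values and cannot be separated without an error.

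By the feature they lay in, the pooled summits were close to the whole list, but a smaller share lay near a protein-coding start. The rule gives 12190 of the 12784 pooled summits to a gene, while the whole list holds them all. Introns held 10 of the 25 pooled summits (40%, against 39.9% of all pooled summits), 8 of them introns of the member itself. Between protein-coding genes lay 11 (44% against 42.3%) and in coding exons 2 (8% against 9.32%). The distance to the nearest protein-coding start was 1 kb or less for 9 (36% against 47.7%), and 7 were within 1 kb of a start of the member. For 19 of the 25 the nearest protein-coding start was that of the member. None of the 88 summits in the pooled and replicate lists lay within 300 bp of the midpoint of a tRNA, snoRNA, snRNA, miRNA or rRNA gene.

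Of 5 sequence patterns searched on both strands within 100 bp of each pooled summit, 3 were found at the 9 genes. The POU class IV core, CATNATTAA, occurred in 1 of the 25 windows (4%, against 1.06% of all 12784 pooled windows). A POU-bound element of the kind known from the mec-3 promoter, AATGCAT, occurred in 2 (8% against 3.15%), and the homeodomain core TAATTA in 3 (12% against 9.25%). The octamer ATTTGCAT and the repeat GAGAGAGA occurred in none, against 1.74% and 3.26% of all windows. Several of these counts moved with the window. Within 200 bp the octamer occurred in 3 (12% against 3.38%), the POU class IV core in 2 (8% against 2.11%) and the homeodomain core in 5 (20% against 18.7%). Those 2 windows with the POU class IV core belong to neighbouring ham-2 summits, X 4560961 and X 4561190. The windows overlap and hold the same single site. Within 50 bp the POU class IV core occurred in 0 (against 0.485%) and the homeodomain core in 1 (4% against 4.65%). The element AATGCAT occurred in 2 within 50 bp (8% against 1.71%) and in 3 within 200 bp (12% against 5.71%). The POU class IV core ends in the letters with which a homeodomain core can begin, so matches of both may overlap. With 25 windows each count within 100 bp is 3 or fewer. The POU matches lay at low summits and at none of the strong ones, and none of these 3 summits was matched in both replicates. They are shown with 20 bases to each side, the match in capitals, on the plus strand (chrII:5928693-5928739, chrX:11461575-11461621 and chrX:4561100-4561148). The egl-44 match began 18 bp from the summit of signal 28.5, the lin-14 match covered the summit of signal 25.7, and the ham-2 match ended 62 bp from the summit of signal 26.2, nearest to C05E11.6:
upstream of egl-44: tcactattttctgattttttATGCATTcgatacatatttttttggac
upstream of lin-14: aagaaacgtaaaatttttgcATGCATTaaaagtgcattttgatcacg
downstream of ham-2: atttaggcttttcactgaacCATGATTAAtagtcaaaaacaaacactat

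Other genes of the pathway were counted by the same rule. Of 12 further regulators of touch receptor fate, 1 (8.33%) had IDR summits, unc-86 itself with 4, against 10% of all protein-coding genes. A pooled summit was found at 11 of them (91.7%, against 63.4%). At unc-86 pooled summits numbered 12, or 10.3 per 10 kb searched, against 1.25 over all protein-coding genes. Tagged UNC-86 is made from the transgene wgIs476. Whether unc-86 sequence in it adds to the signal at this gene was not tested. A pooled summit matched in both replicates was found at 5 of the 12 (41.7%, against 32.2% of all protein-coding genes). These were unc-86, the proneural gene lin-32, the LIM-binding cofactor gene ldb-1, aha-1, whose product pairs with AHR-1, and lin-28, which acts with lin-14 in developmental timing. Their strongest pooled signals were 81.1, 61.8, 58.1, 42.7 and 43.2. The strongest at unc-86, lin-32 and ldb-1 thus exceeded every summit at the 9 genes. Of 14 touch receptor neuron genes, 2 (14.3%) had an IDR summit: mec-6 (signal 72.5, 0.312 kb from a start of the gene) and mec-14 (72.9, 3.05 kb from its start). A pooled summit matched in both replicates was found at 6 (42.9%): mec-6, mec-7, mec-8, mec-14, mec-15 and mec-17. The shares of all protein-coding genes were 10% and 32.2%. A pooled summit, matched or not, was found at 8 of the 14 (57.1%, against 63.4%). These 14 genes had 1.23 pooled summits per 10 kb searched, against 1.25 over all protein-coding genes. The gene mec-3 had no pooled summit and none in replicate 2, but 1 in replicate 1 (signal 15.7, rank 10095).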

How the data were processed

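ChIP-seq peak lists of 2 biological replicates were used. Per the file headers, the authors called peaks and background regions per replicate and on both together, each with a control file, and derived the IDR list from these 3. The peak caller, aligner, IDR threshold and depth were not given in the sources used here. Column 7 holds the authors' signal value and column 9 the deposited −log10 q value. Summit offsets, another deposited value, place the summits. The ce11 lists were used with the Ensembl release 115 annotation and the RefSeq sequence of the same assembly (WBcel235). The ce10 lists were not used, since coordinates were not converted.

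Summits within 5 kb of any transcript start or in an intron of any transcript were given to a gene, to several genes where windows overlap. Summits within 100 bp counted as matched. The replicates enter the pooled list, so a match in 1 of them is favoured by construction. Summits are not independent samples, and no test was made. The assignment was tested on simulated summits at known positions drawn from the search windows themselves. That checks the lookup, not the annotated starts and introns behind the windows. The members are named without use of a measured value, but they, the gene lists, patterns and alternatives were chosen with earlier results of these data known. Pattern windows of 50 and 200 bp to each side were tried beside 100 bp. All 9 members are named, and single summits are named where they were strongest, matched or needed to account for a gene. Sequences are the strongest matched, else strongest, pooled window per gene, with further ones named where shown; windows on 1 chromosome or touching a UTR are not shown. Python 3.11.15, numpy 2.4.6, pandas 2.3.3 and matplotlib 3.10.9 were used.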

Additional observations from a re-analysis of the deposited data

How the results depend on the processing

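No member had an IDR summit under any alternative: 2 kb or 10 kb in place of 5 kb, introns not added, the nearest start only, the 408 strongest IDR peaks, or the 816 strongest peaks of a single replicate. Over all protein-coding genes the share with one ran from 3.73% (nearest start only) to 16.3% (10 kb). All 9 had a pooled summit (63.4% of genes), but 7 with 2 kb (42.9% of genes). With the 12784 strongest entries of replicate 2 in place of the pooled list there were 8 (66.5% of genes). There were 5 with the 5000 entries of highest signal (zag-1, alr-1, ahr-1, lin-14 and ham-2, against 37.4% of all genes) and 1, zag-1, with a −log10 q of at least 1 (14.5% of genes). Their 25 pooled summits became 7 and 1 under these limits and 13 with 2 kb, where fewer entries or less sequence were searched. Genes with a pooled summit matched in both replicates numbered 6 (32.2% of all genes), and between 4 and 8 with other distances or assignments. There were 4 with 2 kb (19.5% of all genes), 7 with 10 kb (48.8%) and 5 with the nearest start only (15.1%). When summits were matched within 50 bp there were 5 (23.7%), and within 200 bp 8 (38.9%). With the 5000 strongest entries of each replicate there were 2, zag-1 and lin-14, against 15.3% of all genes. Within 50 bp lin-14 was lost, since the first of its strong summits lay 52 bp from that of replicate 1 and the other 83 bp from that of replicate 2. No paired analysis was possible because the samples form a single group. The unknown depth limits what an absent summit can show.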
